A study of Arabidopsis thaliana with 33 samples.

Results

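The response of Arabidopsis thaliana shoots to low oxygen at normal pressure (97 kPa/HypOx) was described from 2 shoot arrays held at a total pressure of 97 kPa with a reduced oxygen partial pressure, against the 3 shoot arrays at 97 kPa. These 5 arrays were chosen by their titles alone, out of 18 shoot arrays and 33 arrays in all, and every probe set of nuclear genes was kept. The plants were 10 d seedlings of the ecotype Wassilewskija, grown in the light on vertical plates, moved into low pressure growth chambers and kept there for 24 h, and the whole aerial part including the hypocotyl was taken as shoot. The oxygen partial pressure at 97 kPa/HypOx was 5.1 kPa by the labels and 5 kPa by the methods, and at 97 kPa it was 21 kPa, so that these groups differed in oxygen while total pressure, carbon dioxide and light were the same. All groups were of this 1 ecotype, and each array held a pool of plants from a single plate by the methods.

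Plants cannot carry oxygen to their tissues by circulation, and when it runs short mitochondrial respiration slows and pyruvate is passed to ethanol and lactate by pyruvate decarboxylase (PDC), alcohol dehydrogenase (ADH) and lactate dehydrogenase (LDH). In Arabidopsis the shortage is read through group VII ethylene response factors, whose N-terminal cysteine is oxidized by plant cysteine oxidases (PCO) as long as oxygen is present, which marks the factors for degradation. A set of core low-oxygen genes, among them PDC1, ADH1, AHB1, PCO1 and LBD41, is switched on when these factors become stable. Illuminated shoots also make oxygen by photosynthesis, which roots do not.

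The 18 shoot arrays comprised 2 at 97 kPa/HypOx, 3 at 25 kPa, 3 at 25 kPa/NormOx, 3 at 50 kPa, 4 at 50 kPa/NormOx and 3 at 97 kPa, where NormOx stands for oxygen kept at 21 kPa, and where shoots at 25 kPa had 5 kPa and shoots at 50 kPa had 10 kPa of oxygen. Levels are log2 values from Robust Multi-chip Average (RMA) normalization and ran from 3.31 to 13.44 in shoots. All 6 groups were fitted together with limma, so that they shared 1 estimate of the spread for each gene. The mean correlation of an array with the other shoot arrays was 0.974 to 0.983, except for replicate 1 at 50 kPa/NormOx with 0.898, which enters the contrast of these 5 arrays only through the estimate of the spread. The HypOx arrays lay closer together than those of any other group, with a spread of 0.403 of the pooled value, against 0.836 for the 97 kPa arrays. With 2 against 3 arrays the smallest p an exact permutation test could give is 0.1, and p-values below are therefore those of the fit across all genes. Of 29 listed photosynthesis genes of leaves 6 had a named probe set, among them RCA (Rubisco activase) at 12.42 and 12.48 in HypOx shoots against 12.48, 12.35 and 12.64 in 97 kPa shoots. None of the 6 passed the threshold below, which 0.186% of all probe sets passed.

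Few genes of shoots were called changed at low oxygen and normal pressure, and most of those called were higher. A gene was called changed at the threshold of the study, an unadjusted p under 0.01 with at least a 2-fold difference (1 on the log2 scale). Of 22634 probe sets tested, 36 were higher (0.159%) and 6 were lower (0.0265%) in 97 kPa/HypOx than in 97 kPa shoots, 0.186% of all together. Of these, 5 also passed a Benjamini-Hochberg adjusted p under 0.05 (0.0221%), and all 5 were higher, but none did when the 5 arrays were fitted alone. An unadjusted p under 0.05 was found for 645 probe sets, which is 2.85% of those tested. This is below the share of 0.05 expected with no effect at all. The share was 5.08% without replicate 1 at 50 kPa/NormOx and 5.17% with the 5 arrays fitted alone. The median log2 fold change over all probe sets was -0.00, and 48.4% of them had a positive one. A difference of 2-fold or more was found for 70 probe sets (0.309%), of which 28 did not reach the p threshold (17 higher and 11 lower). The p threshold was reached by 180 (0.795%), also below the share of 0.01 expected with no effect. Of these 180, 138 differed by less than 2-fold (82 higher and 56 lower). Without replicate 1 at 50 kPa/NormOx, 48 genes were called, including all 42, and 13 passed the adjusted p. The number of calls fell to 20 without HypOx replicate 1 and to 26 without 97 kPa replicate 1.

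**Figure D1:**
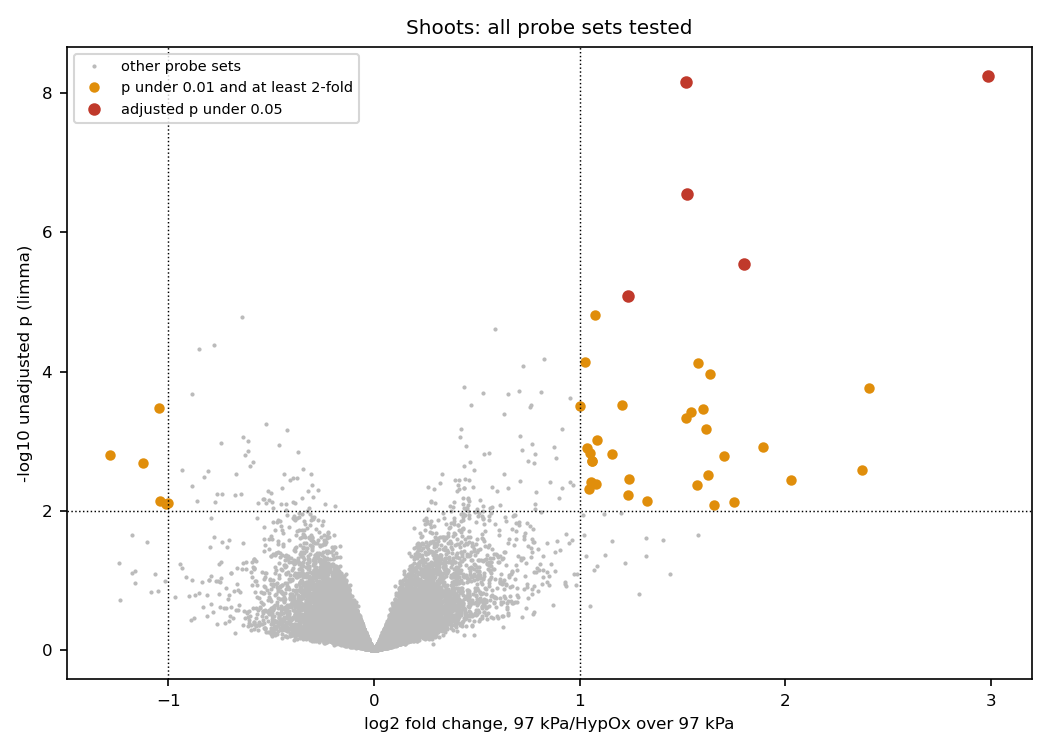
Log2 fold change of 97 kPa/HypOx over 97 kPa shoots (x axis) against -log10 of the unadjusted limma p (y axis) for all 22634 probe sets, with dotted lines at the thresholds. The 36 called genes on the right outnumber the 6 on the left, and the 5 genes with an adjusted p under 0.05 are all on the right.

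In all 42 called genes both HypOx arrays lay outside the range of the 3 arrays at 97 kPa. Such a separation was found for 20.2% of all probe sets, so it is no result on these genes by itself. Of the 42 names, 16 come from the platform annotation and 19 only from tables of genes that the study called in these arrays, while 7 probe sets have no name here. Counts over gene lists are therefore given apart for the members named by each source, since members of the second kind were chosen on these samples.

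Core low-oxygen genes were 10 of the 36 genes that rose. Of 47 genes in the list 41 had a named probe set, and 10 of these rose, 0 fell and 31 did not pass, against 0.159% of all probe sets that rose. Among the 26 members named by the platform annotation 5 rose, and among the 15 named only from genes the study had called 5 rose. The median log2 fold change was 0.64 over the 41 members (0.65 over the 26), against -0.00 over all probe sets. Both HypOx arrays lay above all 97 kPa arrays in 28 of the 41 members, against 10.6% of all probe sets.

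AT4G33560, annotated as a wound-responsive protein, had the largest change. Its level was 7.79 and 7.03 in HypOx shoots, against 4.26, 4.51 and 4.51 in 97 kPa shoots, and the log2 fold change was 2.99 (SE 0.24, adjusted p = 7.77e-05 by limma), which is 7.92-fold. Between the lower HypOx array and the highest control array a wide gap was left, although the HypOx arrays themselves were apart. AT5G66985, an uncharacterized gene, stood at 5.49 and 5.28 in HypOx shoots, and at 3.77, 3.89 and 3.94 in 97 kPa shoots, near the lower end of the scale. Its log2 fold change was 1.52 (SE 0.13) with the same adjusted p of 7.77e-05. AT3G03270, a universal stress protein, was 8.94 and 8.78 in HypOx shoots and 7.09, 7.11 and 6.98 in 97 kPa shoots, 3.48-fold higher (adjusted p = 0.0164, limma). The SD was 0.12 at 97 kPa/HypOx (n = 2) and 0.07 at 97 kPa (n = 3).

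PDC1 of ethanolic fermentation rose. PDC1, the pyruvate decarboxylase most closely tied to low oxygen, had levels of 5.89 and 5.52 in HypOx shoots against 4.01, 4.08 and 4.45 in 97 kPa shoots, a log2 fold change of 1.52 (SE 0.17) with an adjusted p of 0.00212 by limma. The isoform PDC2 had 8.10 and 7.87 in HypOx shoots and 7.16, 7.32 and 7.35 in 97 kPa shoots, but its log2 fold change of 0.71 (SE 0.17) stayed below 2-fold. ADH1, which makes ethanol from acetaldehyde, stood at 6.06 and 6.15 in HypOx shoots against 5.34, 5.73 and 5.36 in 97 kPa shoots, a log2 fold change of 0.63 (SE 0.14). For LDH the arrays gave 7.63 and 7.40 at 97 kPa/HypOx, against 6.10, 7.23 and 6.84 at 97 kPa. In each of these isoforms and enzymes the HypOx arrays were above the controls, as in 10.6% of all probe sets. This held for 8 of the 10 measured genes of fermentation and glycolysis. PDC1 alone among the genes of this paragraph passed the threshold of the study.

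Sucrose synthases, which open sucrose for glycolysis at a lower energy cost than invertase, did not pass. SUS1 had a log2 fold change of 1.16 (SE 0.47) and SUS4 of 0.97 (SE 0.28). SUS1 was 7.06 and 6.76 in HypOx shoots and 5.18, 6.03 and 6.05 in 97 kPa shoots, so that its miss came from the spread, while SUS4 missed by the fold. SUS1 was called when the 5 arrays were fitted alone, without replicate 1 at 50 kPa/NormOx and with array weights. Of the 31 fermentation and glycolysis genes 10 had a named probe set, and 1 rose and 9 did not pass (all 5 named by the platform annotation did not pass), with a median log2 fold change of 0.74. Over all probe sets 0.159% rose. GAPC2, a cytosolic glyceraldehyde-3-phosphate dehydrogenase of glycolysis, overlapped between the groups, with 11.77 and 11.76 in HypOx shoots and 11.51, 11.70 and 11.77 in 97 kPa shoots. AT2G31390, a fructokinase, rose by 1.23 on the log2 scale (SE 0.18, adjusted p = 0.0377, limma), with 9.32 and 9.22 at 97 kPa/HypOx against 7.83, 8.11 and 8.17 at 97 kPa.

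S-ACP-DES6, AHB1, ACO1 and PCO1, all in the core list, also rose. S-ACP-DES6, a stearoyl-acyl carrier protein desaturase, which needs molecular oxygen, was 8.83 in both HypOx arrays against 6.19, 6.39 and 6.69 in 97 kPa shoots, a 5.31-fold rise with a log2 fold change of 2.41 (SE 0.48). AHB1, a haemoglobin that removes nitric oxide, was 8.42 and 8.30 in HypOx shoots and 6.74, 6.47 and 7.02 in 97 kPa shoots. ACO1, the oxidase of the last step of ethylene synthesis, was 7.92 and 7.60 in HypOx shoots and 6.25, 6.06 and 6.16 in 97 kPa shoots. PCO1, the cysteine oxidase of the oxygen sensing pathway, was 7.68 and 7.52 in HypOx shoots against 6.13, 6.55 and 6.95 in 97 kPa shoots. Their log2 fold changes were 1.62 for AHB1 (SE 0.37), 1.60 for ACO1 (SE 0.34) and 1.06 for PCO1 (SE 0.28), and none of them passed the adjusted test in the fit of all arrays.

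In the oxygen sensing list most measured members did not pass. Of 19 oxygen sensing genes 8 had a named probe set, of which AHB1 and PCO1 rose and 6 did not pass, beside 0.159% of all probe sets that rose. Of the 8, 7 are named only from genes the study called, AHB1 and PCO1 among them. PCO2 was 6.4 and 6.49 in HypOx shoots and 6.53, 5.49 and 5.90 in 97 kPa shoots, so that the groups overlapped. LBD41, a transcription factor of the core set, was 9.36 and 9.10 at 97 kPa/HypOx and 8.48, 8.44 and 9.20 at 97 kPa, and here too the groups overlapped. The log2 fold changes of the group VII factors were 0.39 for ERF073 (SE 0.19) and 0.14 for ERF071 (SE 0.36). HRA1, which restrains the factor RAP2.12, was 5.47 and 5.46 in HypOx shoots against 4.95, 4.81 and 5.04 in 97 kPa shoots, a log2 fold change of 0.53 (SE 0.17). ALAAT1, an alanine aminotransferase, had 0.32 (SE 0.33) on a probe set that may also read close copies of the gene. ASP2, a cytosolic aspartate aminotransferase, rose by 1.21 (SE 0.25), with 8.59 and 8.32 in HypOx shoots and 6.87, 7.40 and 7.48 in 97 kPa shoots.

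**Figure D2:**
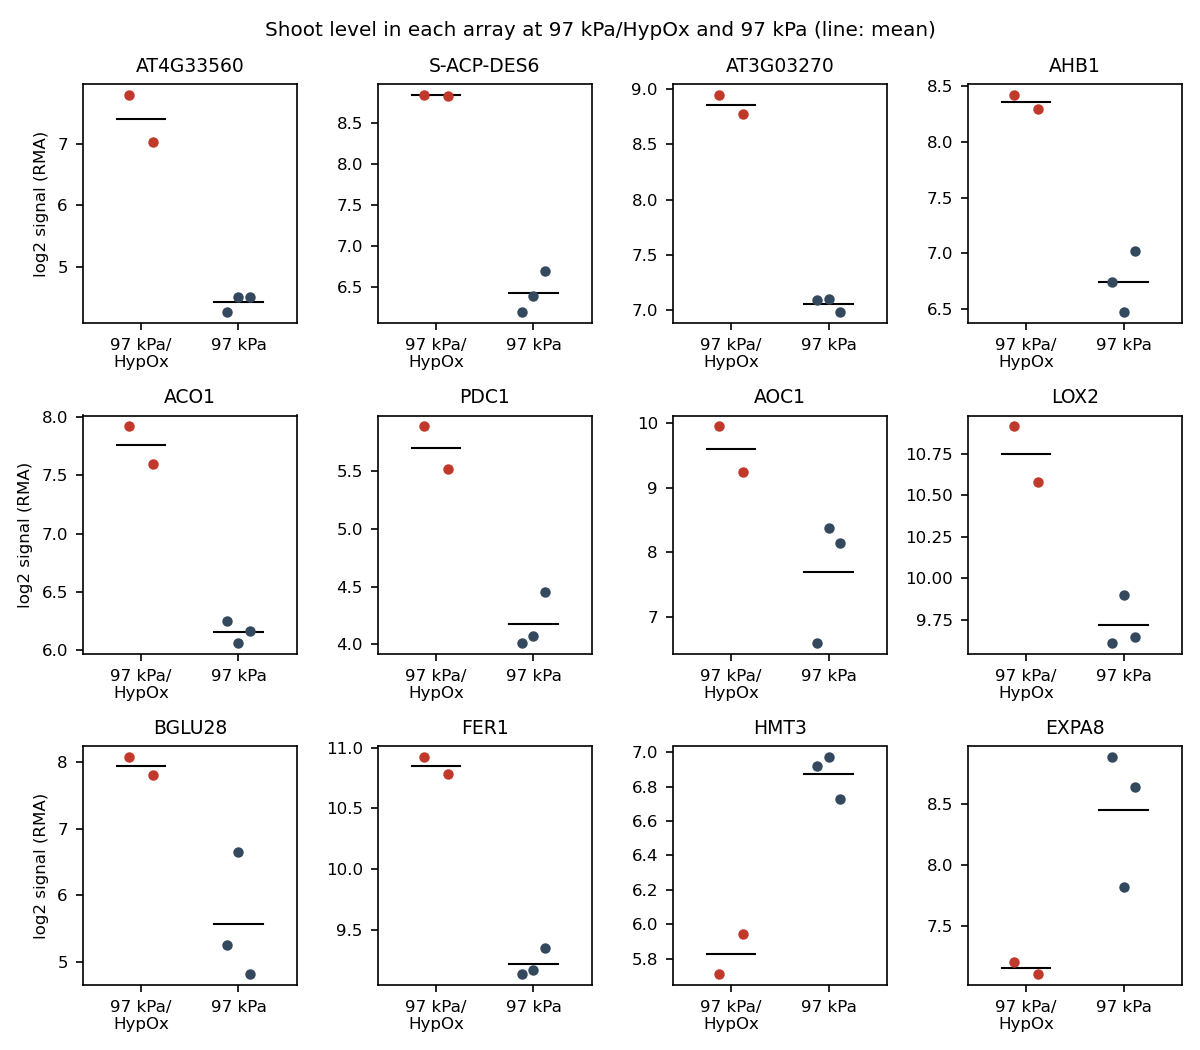
Log2 signal (y axis) of 12 called genes in each shoot array at 97 kPa/HypOx (left, 2 arrays) and 97 kPa (right, 3 arrays), with the group mean as a line. The HypOx arrays lie above all 97 kPa arrays in the first 10 genes and below them in HMT3 and EXPA8, while AOC1 and BGLU28 show the widest spread at 97 kPa.

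The jasmonate list held 4 genes that rose, LOX2, AOS, AOC1 and KAT5. LOX2, AOS and AOC1 catalyse successive steps from linolenic acid in the plastid, and KAT5 is a thiolase of beta-oxidation, by which jasmonate side chains are shortened. LOX2 was 10.92 and 10.58 in HypOx shoots and 9.61, 9.90 and 9.65 in 97 kPa shoots. AOS was 7.90 and 7.47 in HypOx shoots and 6.24, 6.76 and 6.88 in 97 kPa shoots. AOC1 was 9.95 and 9.24 in HypOx shoots and 6.6, 8.37 and 8.14 in 97 kPa shoots, with 97 kPa replicate 1 far below the other controls. The log2 fold changes were 1.03 for LOX2 (SE 0.19), 1.05 for AOS (SE 0.31), 1.89 for AOC1 (SE 0.47) and 1.16 for KAT5 (SE 0.30), and the probe set of AOC1 may also read close copies. Of 31 jasmonate genes 10 had a named probe set, of which 4 rose, 0 fell and 6 did not pass, beside 0.159% of all probe sets that rose. Without HypOx replicate 1 the calls of LOX2, AOS and AOC1 were lost, without 97 kPa replicate 1 those of LOX2 and AOS, without 97 kPa replicate 3 that of LOX2 and without HypOx replicate 2 that of KAT5. The call of AOC1 was also lost with the 5 arrays fitted alone, and that of AOS with array weights. All 4 genes that rose are among the 6 members named only from genes the study called, and 0 of the 4 members named by the platform annotation rose. Some genes known to be induced by jasmonate did not pass. TAT3, a tyrosine aminotransferase, had a log2 fold change of 1.57 (SE 0.62) with arrays that did not overlap but spread widely. The thionin THI2.1 was 8.24 and 8.09 in HypOx shoots and 9.39, 8.40 and 9.03 in 97 kPa shoots, and the defensin PDF1.2 was 10.35 and 10.82 in HypOx shoots and 10.91, 10.28 and 10.38 in 97 kPa shoots.

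BGLU28, GGCT2;1 and PYK10 also rose. BGLU28, a beta-glucosidase that is induced when sulfur is short, was 8.07 and 7.81 in HypOx shoots and 5.25, 6.65 and 4.81 in 97 kPa shoots, 5.17-fold higher with a wide spread of the controls (log2 fold change 2.37, SE 0.65). Its call was lost without 97 kPa replicate 3 and without either HypOx array. GGCT2;1, which breaks down glutathione, was 7.25 and 7.71 in HypOx shoots and 5.76, 6.36 and 5.21 in 97 kPa shoots. Of 22 sulfur and glucosinolate genes 3 had a named probe set, and BGLU28 and GGCT2;1 rose, beside 0.159% of all probe sets. The first is named by the platform annotation and the second only from genes the study called. The third, BCAT4 of glucosinolate synthesis, had a log2 fold change of -0.34 (SE 0.13). PYK10, the beta-glucosidase of endoplasmic reticulum bodies, was 9.62 and 9.87 in HypOx shoots and 8.02, 7.93 and 8.73 in 97 kPa shoots, a log2 fold change of 1.52 (SE 0.34). The lectins JAL22 and PBP1, singled out here after their values were seen because PBP1 binds PYK10, rose by 1.54 (SE 0.33) and 1.08 (SE 0.26). The probe set of PBP1 may also read close copies.

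PYK10 is also a root marker, and its level in roots at 97 kPa was 12.36 on average. The other root markers with a named probe set (3 of 16) were near the lower end of the scale in both groups, with the root hair expansin EXP7 at 4.62 and 4.80 in HypOx shoots and 5.24, 4.36 and 4.74 in 97 kPa shoots, and the root aquaporin TIP2;3 at 4.22 and 4.14 in HypOx shoots and 3.94, 4.44 and 4.1 in 97 kPa shoots. The 100 probe sets with the largest excess of roots over shoots at 50 kPa/NormOx, a set chosen after the data were seen, had a median level of 4.46 and 4.48 in HypOx shoots and 4.48, 4.39 and 4.49 in 97 kPa shoots, beside 9.52 to 9.76 in roots at 97 kPa, which were normalized apart from the shoots. Their median log2 fold change was 0.01, and PYK10 is not among them. In whole shoots, a change in the number of cells of a type and a change in RNA per cell cannot be told apart.

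FER1, the plastid iron store ferritin, was 10.92 and 10.78 in HypOx shoots and 9.13, 9.16 and 9.35 in 97 kPa shoots, with a log2 fold change of 1.63 (SE 0.31), and it was called in all 13 alternative analyses. It was the 1 member that rose among the 7 genes of the copper and iron list, beside 0.159% of all probe sets that rose. FER1 is among the 5 members named only from genes the study called, and 0 of the 2 named by the platform annotation rose. CSD2, a copper/zinc superoxide dismutase of the same list, was 7.59 and 9.38 in HypOx shoots and 8.01, 7.71 and 8.28 in 97 kPa shoots, so that the HypOx arrays lay on either side of the controls. BAM5, a beta-amylase, had a log2 fold change of 1.65 (SE 0.54) and TBL26, of a family of cell wall acetyltransferases, one of 1.62 (SE 0.46). Of the probe sets without a name, 264400_at (log2 fold change 2.02, SE 0.58) and 248676_at (1.75, SE 0.56) were among the 12 largest changes.

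The 6 lower genes changed by 1.00 to 1.28 on the log2 scale, and none passed the adjusted test in the fit of all arrays. EXPA8, an expansin, which loosens cell walls, was 7.21 and 7.11 in HypOx shoots and 8.88, 7.82 and 8.63 in 97 kPa shoots, and its log2 fold change was -1.28 (SE 0.33). HMT3, a homocysteine methyltransferase that forms methionine, was 5.71 and 5.95 in HypOx shoots and 6.92, 6.97 and 6.73 in 97 kPa shoots, with the controls close together (log2 fold change -1.04, SE 0.22). AT1G25230, of the purple acid phosphatase family, and AGP22, an arabinogalactan peptide of the cell surface, fell by 1.13 and 1.04 on the log2 scale. The probe sets 253207_at and 245777_at, without a name here, fell by 1.01 and 1.00. HMT3 passed an adjusted p of 0.00597 (limma) without replicate 1 at 50 kPa/NormOx.

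Other lists of stress genes had no member past the threshold. This held for the 4 measured genes of drought and abscisic acid (median log2 fold change 0.09), 3 of heat shock (0.15), 3 of sugar starvation (0.08), 6 of reactive oxygen (0.34), 3 of salicylate and defence (0.80) and 1 of the clock (-0.07). These lists had 25, 15, 15, 18, 14 and 11 genes, so that most of their members carry no name here. Over all probe sets 0.186% passed in either direction, so the lack of calls among so few genes is no result on these lists. In the reactive oxygen list the transcription factor ZAT10 was 5.74 and 5.98 in HypOx shoots and 6.54, 5.67 and 7.71 in 97 kPa shoots, and the defence gene PR1 was 10.73 and 9.44 in HypOx shoots and 9.55, 8.33 and 9.42 in 97 kPa shoots. In the lists of oxygen-using lipid enzymes, amino acid metabolism and ethylene the members that rose were S-ACP-DES6, ASP2 and ACO1, of 2, 2 and 3 measured. Over all probe sets 0.159% rose. These members that rose are all named only from genes the study called in these arrays. The 1 measured housekeeping gene, TIP41, was 5.94 and 6.00 in HypOx shoots and 5.73, 5.89 and 5.96 in 97 kPa shoots.

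The called genes were then followed through the other shoot atmospheres. Over the 10 shoot arrays with oxygen at 21 kPa, those at 97 kPa, 25 kPa/NormOx and 50 kPa/NormOx together, both HypOx arrays lay above every array in 31 of the 36 higher genes, and below every array in 3 of the 6 lower ones. The 97 kPa arrays that chose these genes are 3 of the 10, so the counts are a description. Over all probe sets, 0.901% had both HypOx arrays below all 10. Without replicate 1 at 50 kPa/NormOx, 4 of the 6 lower genes were below every array left. Of the 2400 probe sets with HypOx arrays above all 97 kPa arrays, 386 were above all 10. All 10 core low-oxygen genes that rose were above, and the 5 higher genes that overlapped were LOX2, AOS, TBL26, CRK18 and 261191_at. The 36 higher genes were selected in part for low values at 97 kPa. The mean at 97 kPa was below those of both NormOx groups in 20 of them (55.6%), beside 34.1% of all probe sets. This applied to 1 of the 10 core low-oxygen genes, PDC1, whose means were 4.18 at 97 kPa, 4.19 at 25 kPa/NormOx and 4.24 at 50 kPa/NormOx. It applied to 19 of the other 26, where LOX2 averaged 10.75 at 97 kPa/HypOx, 10.52 at 25 kPa/NormOx, 10.45 at 50 kPa/NormOx and 9.72 at 97 kPa. AOC1 averaged 9.60 at 97 kPa/HypOx, 8.46 at 25 kPa/NormOx, 8.52 at 50 kPa/NormOx and 7.71 at 97 kPa. LOX2, AOS, AOC1, KAT5, PYK10, JAL22, PBP1, FER1, BGLU28 and GGCT2;1 were all among these 19.

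**Figure D3:**
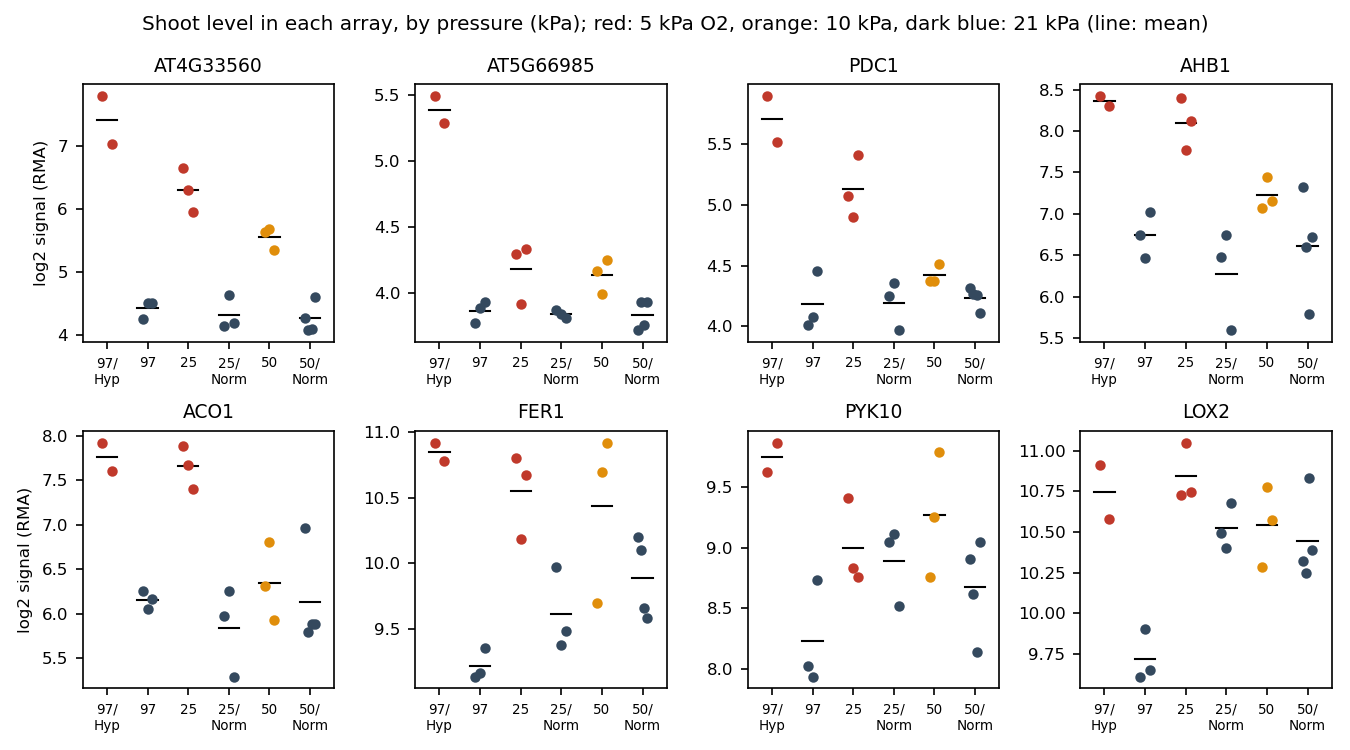
Log2 signal (y axis) of 8 called genes in every shoot array by atmosphere (x axis, total pressure in kPa), colored by oxygen partial pressure, with the group mean as a line. The HypOx arrays lie above all 10 arrays at 21 kPa oxygen in every gene shown but LOX2. The means of LOX2, PYK10, FER1 and, by little, PDC1 are lowest at 97 kPa.

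The contrast of 25 kPa against 25 kPa/NormOx sets the same oxygen partial pressures against each other at a lower total pressure, and it shares no array with the contrast at 97 kPa. Of the 42 called genes 41 changed in the same direction there (97.6%), whereas 50.2% of all probe sets had the same sign in both. The exception was CRK18, a receptor-like kinase, with a log2 fold change of 1.08 at 97 kPa/HypOx and -0.14 at 25 kPa. All 6 lower genes were lower again. Past the threshold in the same direction were 11 of the 42 (26.2%), which are 36.7% of the 30 genes called at 25 kPa, where 0.133% of all probe sets were called. The 11 were AT4G33560, S-ACP-DES6, AT3G03270, AHB1, ACO1, AT2G17850, AT3G29970, ARD3, PCO1, 264400_at and 261191_at, where AT2G17850 encodes a rhodanese-like protein and ARD3 an enzyme of methionine salvage. AHB1 averaged 8.10 at 25 kPa and 6.27 at 25 kPa/NormOx (log2 fold change 1.83, SE 0.33), and ACO1 averaged 7.65 at 25 kPa and 5.84 at 25 kPa/NormOx (1.81, SE 0.31).

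The change was smaller at 25 kPa than at 97 kPa in 38 of the 42 genes, which were chosen for their size at 97 kPa. The median over the 36 higher genes was 1.52 at 97 kPa and 0.92 at 25 kPa. The difference between the contrasts passed the threshold of p under 0.01 and 2-fold for 8 probe sets (0.0353%), all with a positive difference of the 97 kPa minus the 25 kPa change, but none passed an adjusted p under 0.05 by limma, and 510 had an unadjusted p under 0.05 (2.25%). Without replicate 1 at 50 kPa/NormOx 14 passed, without HypOx replicate 1 it was 1, and without 97 kPa replicate 2 it was 19. Among the 8 were AT5G66985, AT4G33560, PYK10 and JAL22, which are also called at 97 kPa/HypOx. AT5G66985 rose by 1.52 at 97 kPa/HypOx, and its log2 fold change at 25 kPa was 0.34 (SE 0.11), a difference of 1.18 (SE 0.17, adjusted p = 0.13, limma). AT4G33560 had 2.99 at 97 kPa/HypOx and 1.98 (SE 0.22) at 25 kPa. PYK10 and JAL22 had 0.11 (SE 0.30) and 0.07 (SE 0.30) at 25 kPa. AHB1, ACO1 and PCO1 were not smaller at 25 kPa, with differences of -0.21 (SE 0.50), -0.21 (SE 0.46) and -0.25 (SE 0.38).

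**Figure D4:**
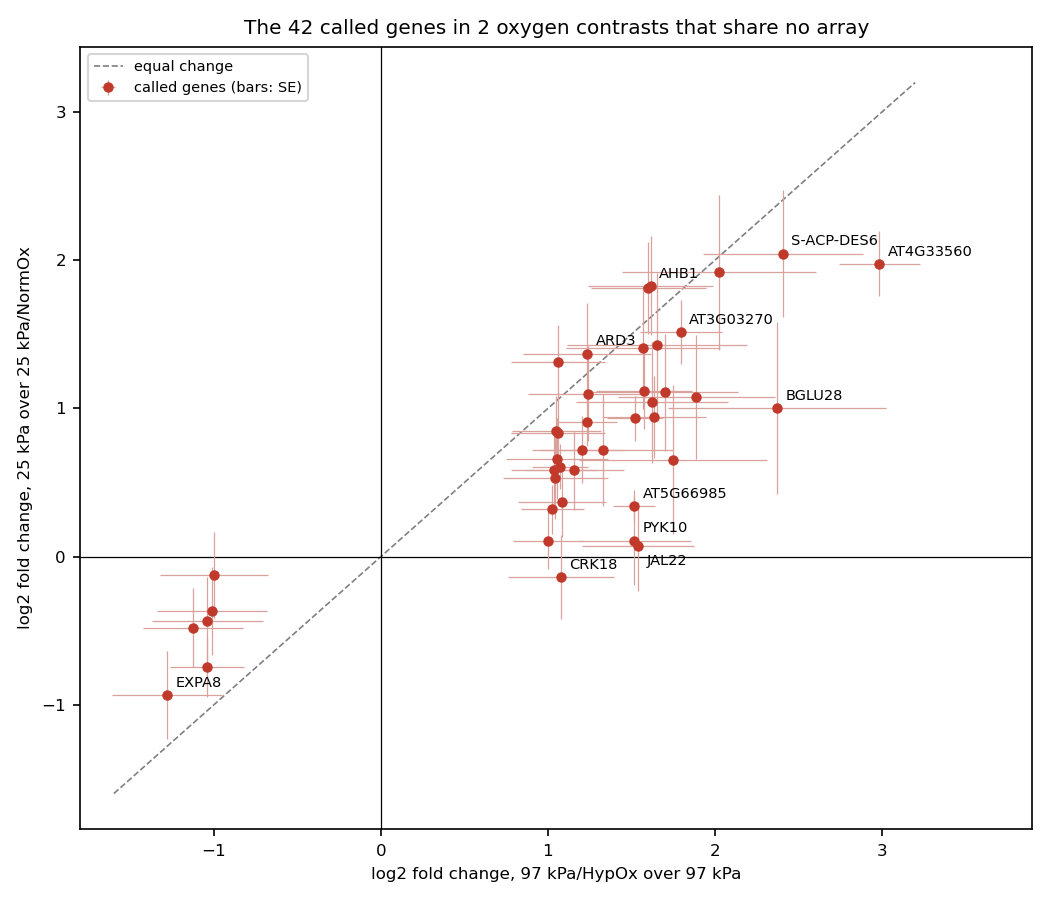
Log2 fold change of the 42 called genes at 97 kPa/HypOx over 97 kPa (x axis) and at 25 kPa over 25 kPa/NormOx (y axis), with standard errors and a dashed line of equal change. All but CRK18 lie in the quadrants of equal sign, and PYK10, JAL22 and AT5G66985 lie far below the line.

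Roots were measured under the same atmospheres, with 3 arrays at 97 kPa/HypOx and 3 at 97 kPa. In roots 142 probe sets passed the threshold (0.627%), and 84 without 97 kPa root replicate 1, an array that stood apart with a mean correlation of 0.884. Of the 42 genes called in shoots 13 were called in roots in the same direction (31.0% of the shoot calls and 9.15% of the root calls). They were AT4G33560, S-ACP-DES6, AT3G03270, AHB1, ACO1, AT2G17850, AT3G29970, PDC1, AT5G66985, ASP2, AT3G27220, PCO1 and G3Pp1, of which 10 are core low-oxygen genes. Roots and shoots were normalized apart, so the comparison of responses used changes within a tissue.

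The root response exceeded that of shoots across the core genes. In all 41 members the log2 fold change was larger in roots, with a median of 2.09 in roots and 0.64 in shoots, whereas it was larger in roots for 48.6% of all probe sets. Of the 41, 37 rose in roots, where 0.601% of all probe sets did, and 10 in shoots, and the tissues differed by the threshold of the study in 19, all larger in roots, as in 0.345% of all probe sets. Of the 41, 15 are named only from genes the study called in these plants, which is no independent evidence. Over all probe sets the difference passed that threshold in 98 (0.433%) and an adjusted p under 0.05 in 11 (0.0486%), which became 90 and 14 with both outlying arrays left out. PDC1 was 9.73, 10.20 and 9.96 in HypOx roots and 3.96, 4.61 and 6.25 in 97 kPa roots, and the root change exceeded that in shoots by 3.50 on the log2 scale (SE 0.57, adjusted p = 0.00702, limma). ERF073 was 8.15, 8.15 and 8.37 in HypOx roots and 4.77, 5.6 and 6.39 in 97 kPa roots, while in shoots it was 5.00 and 4.63 at 97 kPa/HypOx and 4.44, 4.72 and 4.1 at 97 kPa, a difference of 2.25 (SE 0.36, adjusted p = 0.00702). ACO1 and AT3G03270 differed least among the core genes that rose in shoots, by 0.37 (SE 0.40) and 0.60 (SE 0.35).

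Of the 36 higher shoot genes, 14 changed less in roots and 5 changed more at an unadjusted p under 0.01, which 1.43% of all probe sets reached. These genes were chosen for a large rise in the same shoot arrays, so that these counts are a description. FER1 had a log2 fold change of 0.03 (SE 0.18) in roots, and its response in roots minus that in shoots was -1.61 (SE 0.37). The same difference was -2.25 for BGLU28 (SE 0.69), -2.11 for AOC1 (SE 0.55), -1.59 for GGCT2;1 (SE 0.49), -1.28 for PYK10 (SE 0.37) and -0.87 for LOX2 (SE 0.25), none of which passed the adjusted test. LOX2, AOC1 and BGLU28 were near the lower end of the scale in roots, with LOX2 between 3.92 and 4.28 in the 6 root arrays of these atmospheres, while PYK10 stood above 12 in each of them.

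**Figure D5:**
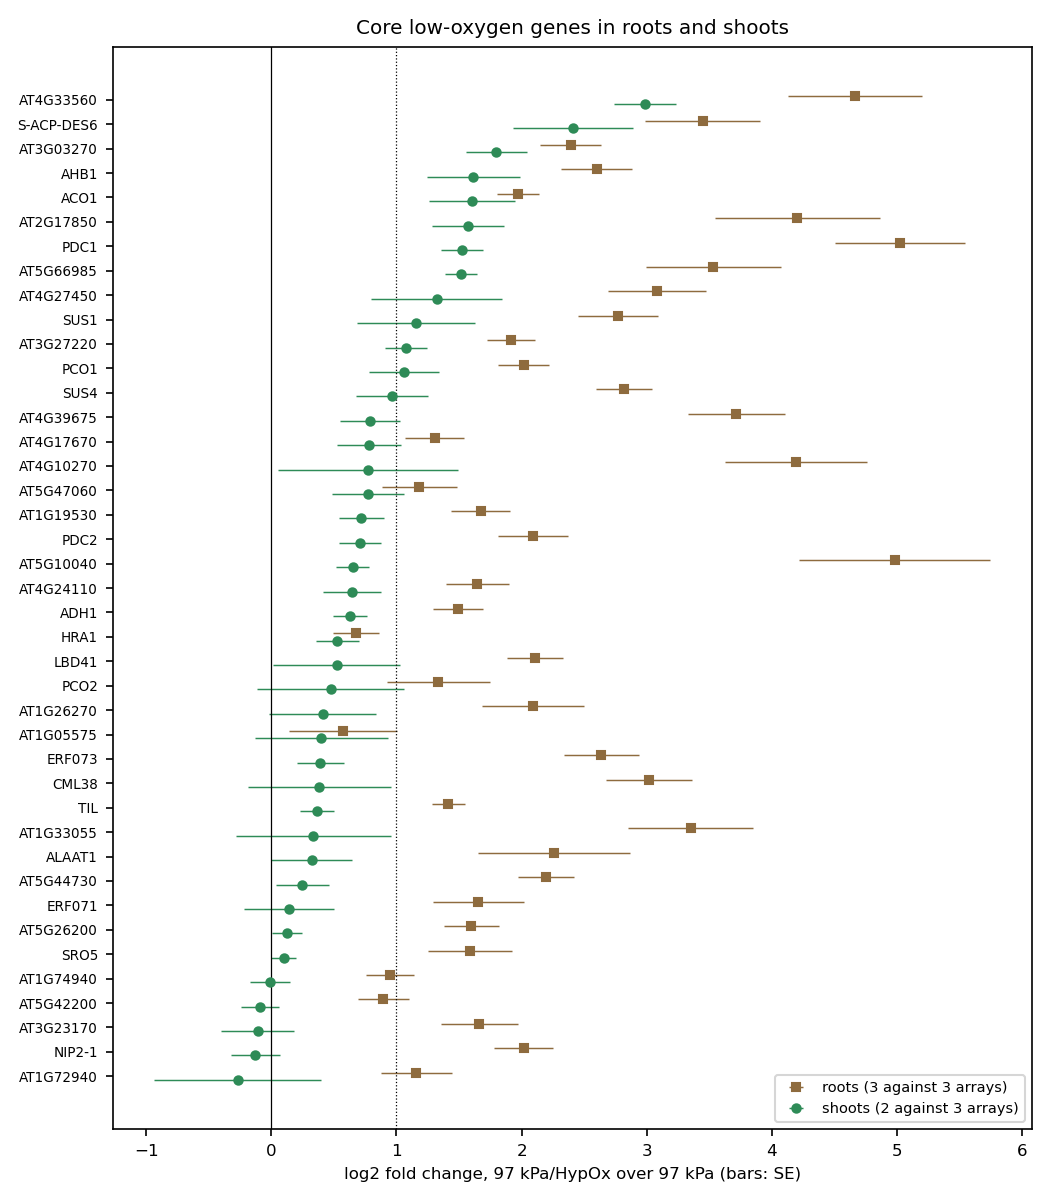
Log2 fold change (x axis, with standard errors) of 97 kPa/HypOx over 97 kPa for the 41 measured core low-oxygen genes (y axis) in roots (squares) and shoots (circles), with a dotted line at 2-fold. The root value is the larger in all 41, for example by 4.33 for AT5G10040, by 3.50 for PDC1 and by 0.37 for ACO1.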

How the data were processed

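Shoots and roots were hybridized to Affymetrix ATH1 arrays, and the authors deposited log2 values from RMA normalization, made separately for each tissue and not pooled (labels also name Affymetrix Expression Console). RMA compresses changes of dim genes, and the values carry no detection calls, so the number of arrays limits the precision. Of 22746 probe sets, 112 of organelle genes were removed. Names came from the platform annotation (13421 probe sets), from gene columns of the study's tables (213 more) or were missing (8517), and 483 probe sets match several genes. limma 3.58.1 in R 4.3.3 (lmFit, eBayes) was fitted to all 18 shoot arrays with 6 groups, and to all 33 arrays for roots against shoots, with Benjamini-Hochberg adjustment. The main fits did not pair arrays by replicate number. By the methods replicates are plates from separate chambers, which the labels do not give per array.

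Genes named in the text pass the adjusted test, have the 12 largest changes in a direction, are called list members, or belong to a fixed set of low-oxygen genes, and others were chosen after their values were seen. The members and lists were chosen with earlier results of these data known. Alternatives were the 5 arrays alone, each array left out, a replicate block, no outlying array, a trended robust prior, array weights, a filter on dim probe sets, median centring and organelle genes kept.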

Additional observations from a re-analysis of the deposited data

Results flagged for a closer look

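A shoot array and 11 genes stood out. Replicate 1 at 50 kPa/NormOx correlated with the rest of the shoot arrays at 0.898 on average, far below the other 3 arrays of its group. Chance would mark at most about 1 in 20 groups of independent values in this way. Mean correlations share arrays, so this rate may not hold for them. Among the 42 called genes, 1 had an outlying array within this group.

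The response to 97 kPa/HypOx differed between roots and shoots by a test of the difference with an adjusted p under 0.05 (limma) in 11 genes, and in all 11 the log2 fold change was the larger in roots. The root minus shoot difference was 4.33 for AT5G10040, an uncharacterized core low-oxygen gene, 3.50 for PDC1, 2.93 for AT4G39675, 2.25 for ERF073 and 2.15 for NIP2-1, an aquaporin that carries lactic acid and whose probe set may read close copies. It was 2.00 for UMAMIT14, an amino acid exporter, 1.95 for AT5G44730, 1.75 for the MADS-box gene AGL44, 1.47 for AT5G26200, 1.2 for AT3G60490 and 1.05 for the lipocalin TIL. UMAMIT14, AGL44 and AT3G60490 were named after their values were seen. Without the outlying array of each tissue 10 of the 11 still passed, and AT5G10040 had an adjusted p of 0.09 by limma. Of the 11 only PDC1 was called in shoots.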

How the results depend on the processing

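With each of the 5 arrays left out in turn, the number of genes called was 20 to 50, with 19 to 37 higher, 1 to 13 lower and 2 to 4 passing the adjusted p, where 2 and 20 came without HypOx replicate 1. The share of called genes with the same sign at 25 kPa was then 92% to 100%, and the difference of the oxygen contrasts was called for 1 to 19 probe sets. The cause was not tested. Fitting the 5 arrays alone left 0 genes at the adjusted p (limma), with 1170 at an unadjusted p under 0.05. Without replicate 1 at 50 kPa/NormOx 13 genes passed the adjusted p and 14 differed between the oxygen contrasts. With array weights 194 genes passed the adjusted p, and 21 were called lower. Arrays of the same replicate number deviated from their group means with correlations of 0.06 and -0.02 between the groups. The deviations of 2 HypOx arrays mirror each other, so this cannot exclude a pairing. A replicate block gave 38 calls, 35 of them shared, with 3 lower. The remaining counts, and every difference of roots from shoots, stayed within 1.5 times. No called gene changed sign, but leaving an array out could not reverse one, since HypOx and 97 kPa arrays did not overlap in any of the 42. Signs were followed only for the called genes, list members and genes past a threshold in another contrast, not for all probe sets. Among those not called, whose changes were small or variable, 20 changed sign under at least 1 alternative. With 1 array left out their log2 fold changes ran from -0.41 to 1.38 for CSD2, -0.18 to 1.06 for CCS, -0.15 to 0.40 for ERF071, -0.073 to 0.27 for UMAMIT14, -0.053 to 0.22 for PRK, -0.18 to 0.30 for PDF1.2, -0.20 to 0.24 for COR15A, -0.056 to 0.13 for UPOX and -0.094 to 0.16 for TIP2;3, and from -0.11 to 0.078 for GAPA, -0.066 to 0.067 for AT1G74940, -0.11 to 0.034 for RCA, -0.11 to 0.057 for PSBO1, -0.23 to 0.11 for GI, -0.29 to 0.15 for EXP7, -0.22 to 0.041 for AT5G42200, -0.24 to 0.10 for AT3G23170, -0.46 to 0.13 for WRKY53 and -0.52 to 0.10 for AT1G72940. With the replicate block they were -0.16 for PDF1.2, -0.023 for UPOX, 0.031 for GAPA, 0.00043 for RCA, 0.013 for PSBO1, 0.067 for AT3G23170 and 0.053 for AT1G72940, and with array weights -0.12 for ERF071, -0.012 for AGL44, -0.087 for PRK and 0.024 for GI. Of the 42 called genes 13 were called under all 13 alternatives, or all that tested them, among them AT4G33560, AT5G66985, PDC1, AHB1, ACO1, FER1 and S-ACP-DES6, while 262369_at was called under 7 and BAM5, AGP22, 248676_at, 253207_at and 245777_at under 8. Levels near the lower end of the scale, such as AT5G66985 and PDC1 at 97 kPa, carry no detection call, and their fold changes may be understated.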
